A study of Mus musculus with 10 samples.

Results

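The facilitative glucose transporters of the SLC2A family carry hexoses down their concentration gradient across cell membranes. In skeletal muscle the insulin-responsive member GLUT4, encoded by Slc2a4, is held in internal vesicles and moves to the surface after insulin or contraction, and GLUT1, encoded by Slc2a1, serves basal uptake. GLUT3, encoded by Slc2a3, has a high affinity for glucose and is best known from neurons. The members described are 6 in number, Slc2a1, Slc2a3, Slc2a4, Slc2a8, Slc2a10 and Slc2a12, chosen by gene name. They are 6 of the 15883 genes of a table of raw RNA-seq counts, and all 6 passed the filter on low counts that left 13338 genes.

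RNA came from the biceps femoris, a muscle of the thigh. All mice were C57BL/6J males, 5 weeks old, kept on normal chow and then fasted for 16 hours. Of the 10 libraries, 5 are from mice with a Zfp407 transgene and 5 from wild-type mice, and the design of the series counts 5 mice in each group. Zfp407 encodes a zinc finger protein, and the title of the series ties its overexpression to glucose homeostasis. The labels name neither the promoter of the transgene nor a founder line, and the table gives a library's group but not its mouse. Libraries therefore carry the number of their column. Levels are CPM, the usual depth-scaled count of a gene, with library totals adjusted by TMM.

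Total counts ran from 15162400 to 19047834 in transgenic libraries and from 13530367 to 17814900 in wild-type libraries. Zfp407 stood at 489 ± 124 CPM in transgenic libraries and 22.9 ± 1.73 CPM in wild-type libraries (SD, n = 5 each), with no overlap. All 12 fast fibre markers of skeletal muscle were present, with a summed level of 80047 to 103090 CPM in transgenic libraries and 85046 to 111860 CPM in wild-type libraries. A list of 14 hepatocyte markers was present too. Its summed level was 415 to 4417 CPM in transgenic libraries, highest in transgenic library 5, and 164 to 349 CPM in wild-type libraries. The largest part of the wild-type sum was Cyp2e1 at 109 ± 65.6 CPM (SD, n = 5). The cell source of these transcripts was not tested. The rows Lars2, Gm15564 and Gm15662 together took 9.62% to 17.3% of transgenic counts and 14.3% to 33.9% of wild-type counts.

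The 6 members lie on 5 chromosomes and encode proteins of 477 to 622 residues. The first 60 coding bases are shown for each because some of the sorting signals that set the insulin-responsive and internal members apart from the surface members lie at this end of the protein. They were taken from GENCODE M21 transcripts (GRCm38) and run 5′ to 3′, and capitals mark the codons of the motif FQQI or of a leucine pair. FQQI, a known endocytosis signal of GLUT4, was found in Slc2a4 alone of the 6, at residues 5 to 8. A leucine pair stood at residues 12 and 13 of both Slc2a8, where it is known as a signal for internal retention, and Slc2a12. In Slc2a10 leucine pairs were found from residue 8 on.
Slc2a4: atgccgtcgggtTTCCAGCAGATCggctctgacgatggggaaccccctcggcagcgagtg
Slc2a3: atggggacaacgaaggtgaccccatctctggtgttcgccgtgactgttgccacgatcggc
Slc2a1: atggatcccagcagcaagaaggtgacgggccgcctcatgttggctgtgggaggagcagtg
Slc2a8: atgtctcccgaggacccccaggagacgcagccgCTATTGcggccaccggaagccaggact
Slc2a12: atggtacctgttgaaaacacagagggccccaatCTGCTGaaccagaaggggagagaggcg
Slc2a10: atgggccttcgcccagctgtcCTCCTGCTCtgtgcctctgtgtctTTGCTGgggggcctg

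The members share little sequence that could mix their reads. The longest exact run shared by the coding sequences of any pair was 29 bases, between Slc2a3 (coding bases 1171 to 1199) and Slc2a4 (1225 to 1253), and reads gagctcttcagccagggcccccgcccagc. Between Slc2a1 and Slc2a3 the longest run was 20 bases. Of the 7286 different 50-base words in Slc2a3 transcripts, 1.26% also occurred in transcripts of other genes, and of those in Slc2a4 none did. For Slc2a12 the share was 8.55%, from the opposite-strand gene Tbpl1 whose exons overlap its own, and for Slc2a1 it was 1.54%, from the opposite-strand gene Gm12868. Whether the counting used strand is not stated, and without strand the reads of an overlap cannot be told apart. Tbpl1 itself did not pass the test between the groups, with a log2 fold change of 0.04 ± 0.11 (SE).

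Among the members only Slc2a3 passed the test between the groups. Its transcript was 6.93-fold higher in transgenic muscle, while Slc2a4, by far the most abundant member, did not pass. Slc2a1, Slc2a8, Slc2a10 and Slc2a12 did not pass either. Thus 1 of 6 members was called higher and none lower at an edgeR adjusted p under 0.05, where 4.28% of all 13338 genes tested were called higher and 5.33% were called in either direction. The median log2 fold change of the 6 members was 0.16, beside 0.003 for all genes tested.

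**Figure D1:**
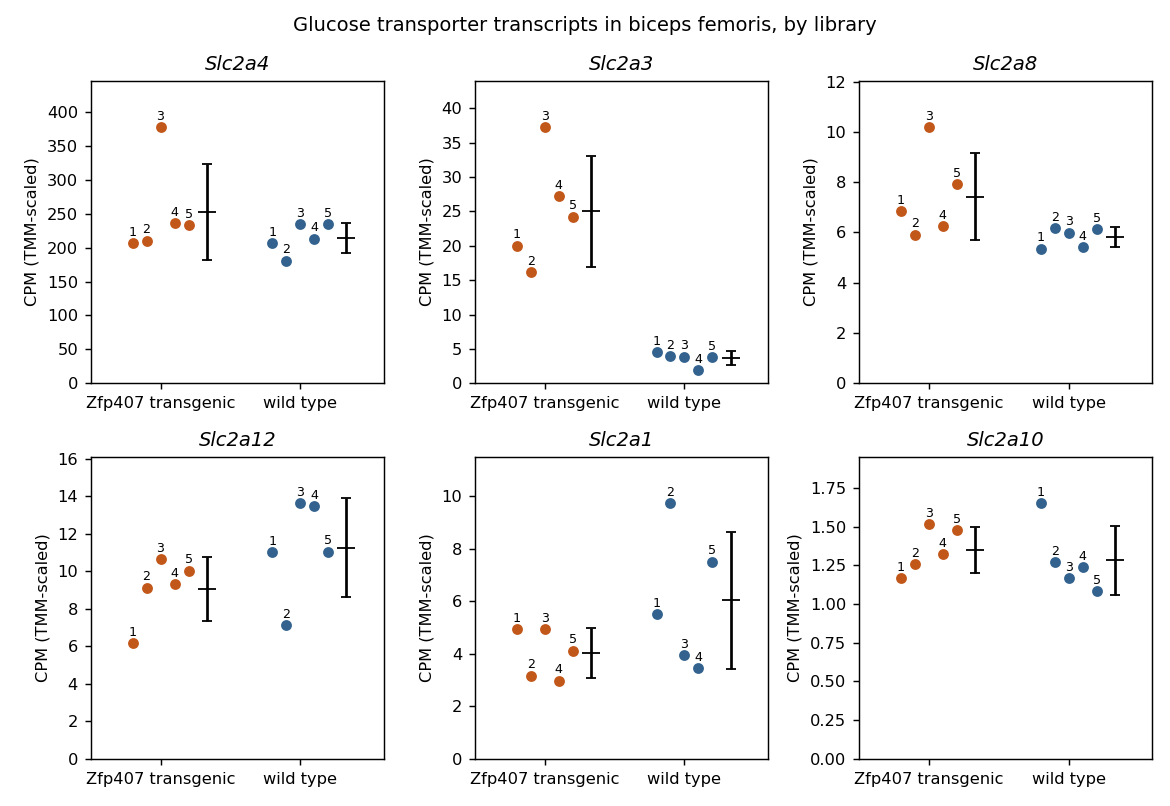
CPM of each member in the 5 transgenic libraries (orange) and the 5 wild-type libraries (blue), numbered by column, with the mean and SD beside them in black. Slc2a3 is the one panel in which the groups do not overlap, with transgenic libraries at 16.2 to 37.3 CPM and wild-type libraries at 1.89 to 4.57 CPM.

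Slc2a3 (ENSMUSG00000003153, chr6:122727809-122801640, minus strand, GRCm38) had 20.02, 16.2, 37.3, 27.2 and 24.3 CPM in transgenic libraries 1 to 5, and 4.57, 3.90, 3.88, 1.89 and 3.83 CPM in wild-type libraries 1 to 5. Every transgenic library thus lay above every wild-type library, and the lowest transgenic library held more than 3 times the level of the highest wild-type library. These levels rest on 348 to 589 counts per transgenic library and 29 to 70 counts per wild-type library. The means were 25.0 ± 8.04 CPM in transgenic muscle and 3.61 ± 1.01 CPM in wild-type muscle (SD, n = 5 each).

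For Slc2a3 edgeR gave a log2 fold change of 2.79 ± 0.25 (SE) with an adjusted p of 3.81e-05. This is a fold of 6.93 with a 95% interval of 4.75 to 10.1. By p-value it ranked 20 among the 13338 genes tested and by size of rise it ranked 157. An exact two-sided permutation test of the mean log2 CPM gave p = 0.00794, the smallest that 5 against 5 libraries allow. Groups without overlap were found in 1 of 6 members and in 8.04% of all genes tested. The authors' deposited table gives Slc2a3 a log2 fold change of 2.80 and an adjusted p of 3.65e-22.

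**Figure D2:**
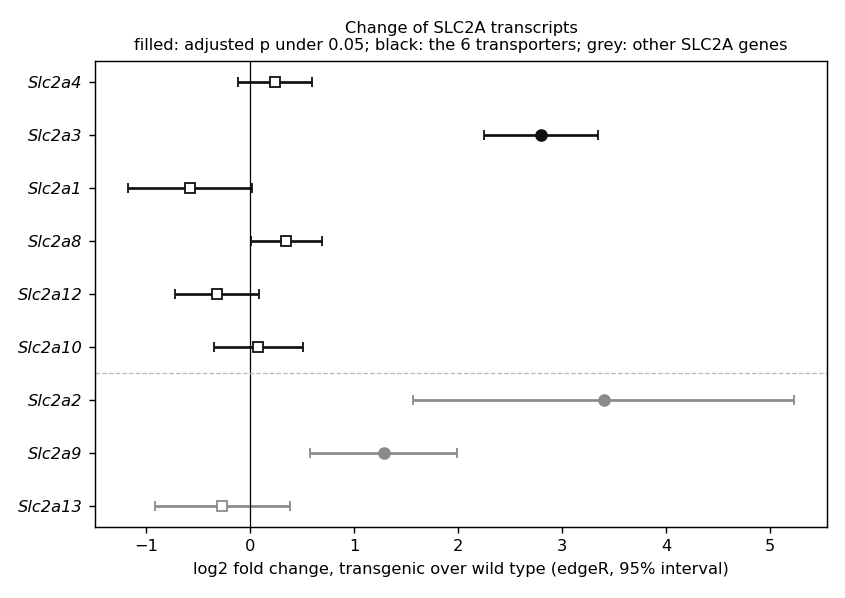
Log2 fold change, transgenic over wild type, of the 6 transporters (black) and of other SLC2A genes tested (grey), with 95% intervals from the edgeR fit; filled marks passed an adjusted p under 0.05. Slc2a3 stands at 2.79 with an interval of 2.25 to 3.34, and the intervals of the other members lie between -1.17 and 0.69.

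Transcripts of other cells that can carry Slc2a3 were measured beside it. In bulk muscle, more cells of a type and more RNA per cell cannot be told apart. The summed level of 13 macrophage and leukocyte markers was 179 to 424 CPM in transgenic libraries and 152 to 294 CPM in wild-type libraries. Of the 13 tested 1, Cd74, was called higher, where 4.28% of all genes tested were, and the median log2 fold change was 0.51. Markers of nerve, Schwann cells and perineurium, 8 of them present, summed to 34.8 to 106 CPM in transgenic libraries and 29.9 to 273 CPM in wild-type libraries, and none of the 8 passed (median log2 fold change -0.33). Platelet and neutrophil markers summed to 5.86 to 11.01 CPM in transgenic libraries and 4.77 to 8.94 CPM in wild-type libraries, with counts of 0 for S100a8 and S100a9 in at least 1 library. The part of these cells, and of the hepatocyte transcripts described above, in the rise of Slc2a3 was not tested.

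Of 9 markers tested for satellite cells, the stem cells of muscle, 4 rose, where 4.28% of all genes tested were called higher. They were Calcr, Myf5, Pax7 and Fgfr4, with log2 fold changes of 1.71, 1.71, 0.93 and 1.02 (edgeR adjusted p = 5.45e-05, 0.000940, 0.00969 and 0.0276). The other 5 did not pass, with log2 fold changes of 0.50 for Sdc4, 0.21 for Itga7, 0.17 for Cdh15, -0.32 for Megf10 and -0.38 for Myod1. The summed level of the 9, to which Sdc4 and Itga7 gave most, was 103 to 170 CPM in transgenic libraries and 91.0 to 102 CPM in wild-type libraries. The part of these cells in the rise of Slc2a3 was not tested.

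Of the 8 genes tested within 250 kb of Slc2a3 none passed the test, where 5.33% of all genes tested were called. The log2 fold changes of the 8 ran from -0.36 to 0.46. The nearest are Nanog, a pluripotency factor at 13176 bases, and Foxj2, a forkhead factor at 18274 bases. Foxj2 stood at 15.6 ± 3.23 CPM in transgenic muscle and 19.9 ± 3.19 CPM in wild-type muscle (SD, n = 5 each). Nanog stood at 0.713 ± 0.155 CPM in transgenic muscle and 0.570 ± 0.208 CPM in wild-type muscle (SD, n = 5 each). Near Slc2a4, 3 of 22 genes tested rose, where 4.28% of all genes tested were called higher. They were the growth factor homologue Fgf11, the translation factor Eif5a and the liver asialoglycoprotein receptor subunit Asgr1, with log2 fold changes of 1.63, 0.70 and 3.48. Within the same distance no gene passed near Slc2a1 (9 tested), Slc2a8 (10 tested), Slc2a10 (6 tested) or Slc2a12 (1 tested), beside the same 5.33%.

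**Figure D3:**
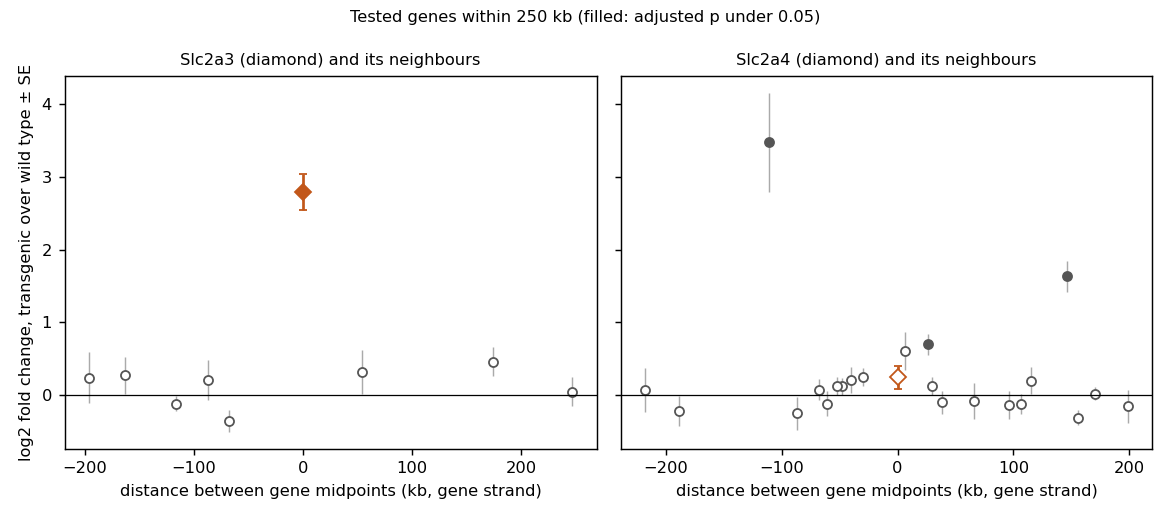
Log2 fold change ± SE, transgenic over wild type, of Slc2a3 and Slc2a4 (orange diamonds) and of the genes tested within 250 kb (circles), against the distance between gene midpoints in kb along the strand of the transporter; filled marks passed an adjusted p under 0.05. Slc2a3 stands at 2.79 above neighbours at -0.36 to 0.46, and Slc2a4 stands at 0.24, with 3 of 22 neighbours that rose where 4.28% of all genes tested did.

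Slc2a4 (ENSMUSG00000018566, chr11:69942539-69948188, minus strand) had 206, 210.4, 378, 236 and 234 CPM in transgenic libraries 1 to 5, and 207, 181, 235, 213 and 235 CPM in wild-type libraries 1 to 5. Transgenic library 3 was far above all others, and the groups overlapped. The means were 253 ± 71.1 CPM in transgenic muscle and 214 ± 22.4 CPM in wild-type muscle (SD, n = 5 each). The test by edgeR gave a log2 fold change of 0.24 ± 0.16 (SE) with an adjusted p of 0.496, and as a fold the 95% interval ran from 0.923 to 1.51. Without transgenic library 3 the value was 0.05 ± 0.09 (SE), with an edgeR adjusted p of 0.821.

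Transgenic library 3 was also the highest transgenic library for Slc2a3, Slc2a8, Slc2a10 and Slc2a12, so that it led in 5 of 6 members. It was the highest transgenic library in 34.6% of all genes tested, against 14.3% to 18.0% for each of the other 4. Relative to the mean of the other transgenic libraries it stood 0.77 higher for Slc2a4, 0.79 higher for Slc2a3 and 0.60 higher for Slc2a8 on the log2 CPM scale. In the same library the fast fibre markers summed to 103090 CPM, against 80047 to 92744 CPM in the other transgenic libraries. Wild-type libraries had sums of 85046 to 111860 CPM, with Slc2a4 at 181 to 235 CPM. In transgenic library 3 the pericyte and smooth muscle list summed to 2746 CPM, against 1579 to 1861 CPM in the other transgenic libraries. Of the 2746 CPM, 2355 CPM was Des, which muscle fibres also express. Without Des the sum was 391 CPM in transgenic library 3, against 470.1 to 548 CPM in the other transgenic libraries. Adipocyte markers without Car3, another gene of muscle fibres, summed to 278 CPM there, against 392 to 2117 CPM. Slow fibre markers were at 310.0 CPM there, within the 271 to 923 CPM of the other transgenic libraries. The part of these differences in the level of Slc2a4 was not tested.

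**Figure D4:**
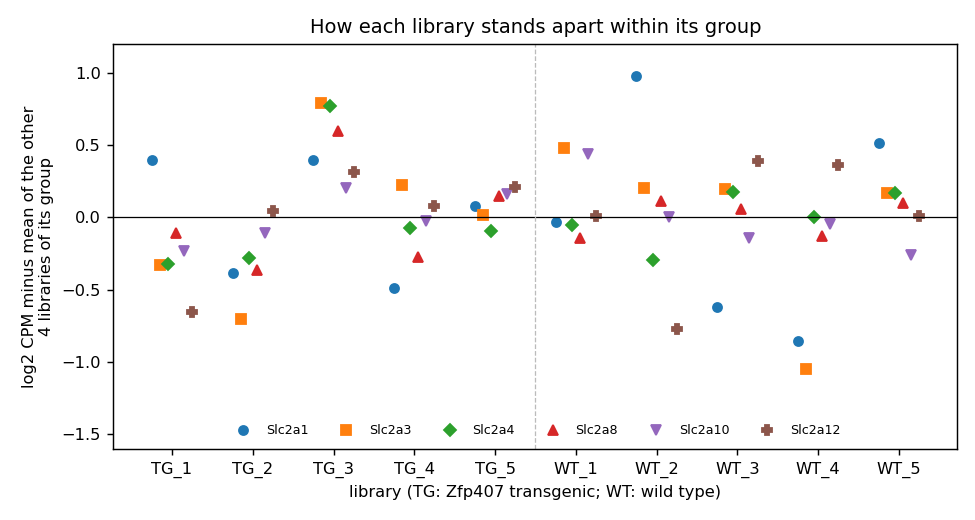
Log2 CPM of each member in each library minus the mean of the other 4 libraries of its group, for transgenic (left) and wild-type libraries (right). In transgenic library 3 all 6 members lie above 0, led by Slc2a3 at 0.79 and Slc2a4 at 0.77, while Slc2a3 and Slc2a1 are lowest in wild-type library 4.

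Slc2a1 (ENSMUSG00000028645, chr4:119108711-119137983, plus strand) had 4.95, 3.17, 4.94, 2.98 and 4.12 CPM in transgenic libraries 1 to 5, and 5.51, 9.74, 3.94, 3.45 and 7.51 CPM in wild-type libraries 1 to 5. The groups overlapped, with wild-type libraries 2 and 5 above the rest. The means were 4.03 ± 0.939 CPM in transgenic muscle and 6.03 ± 2.61 CPM in wild-type muscle (SD, n = 5 each). Its log2 fold change of -0.58 ± 0.28 (SE) had an edgeR adjusted p of 0.294, and as a fold the 95% interval ran from 0.444 to 1.01. It was -0.37 ± 0.25 (SE) without wild-type library 2.

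Slc2a8 (ENSMUSG00000026791, chr2:32972990-32982083, minus strand), a transporter of internal membranes, had 6.84, 5.91, 10.2, 6.24 and 7.91 CPM in transgenic libraries 1 to 5, and 5.36, 6.18, 5.99, 5.40 and 6.14 CPM in wild-type libraries 1 to 5. Transgenic library 2 lay inside the wild-type range and the other 4 transgenic libraries above it. The means were 7.42 ± 1.73 CPM in transgenic muscle and 5.81 ± 0.404 CPM in wild-type muscle (SD, n = 5 each). Adjusted over all genes by edgeR, its log2 fold change of 0.35 ± 0.16 (SE) had a p of 0.268, and without transgenic library 3 it was 0.20 ± 0.12 (SE). The exact two-sided permutation test of this gene alone gave p = 0.0476 before any adjustment.

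Slc2a12 (ENSMUSG00000037490, chr10:22645011-22704285, plus strand) encodes GLUT12, which is also found in insulin-sensitive tissues. It had 6.17, 9.13, 10.6, 9.31 and 10.04 CPM in transgenic libraries 1 to 5, and 11.03, 7.12, 13.7, 13.5 and 11.05 CPM in wild-type libraries 1 to 5. Wild-type library 2 lay inside the transgenic range and the other 4 wild-type libraries above it. The means were 9.06 ± 1.72 CPM in transgenic muscle and 11.3 ± 2.64 CPM in wild-type muscle (SD, n = 5 each). With edgeR the log2 fold change of -0.32 ± 0.19 (SE) had an adjusted p of 0.402. Without wild-type library 2 the value was -0.48 ± 0.16 (SE), at an edgeR adjusted p of 0.136, and without transgenic library 1 it was -0.21 ± 0.17 (SE), at an edgeR adjusted p of 0.604.

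Slc2a10 (ENSMUSG00000027661, chr2:165503787-165519917, plus strand), whose human counterpart is mutated in arterial tortuosity syndrome, was the least abundant member. It had 1.17, 1.26, 1.52, 1.32 and 1.48 CPM in transgenic libraries 1 to 5, and 1.65, 1.27, 1.17, 1.24 and 1.08 CPM in wild-type libraries 1 to 5. The transgenic range lay inside the wild-type range, on 21 to 28 counts per transgenic library and 15 to 21 per wild-type library. Its log2 fold change of 0.08 ± 0.20 (SE) had an edgeR adjusted p of 0.891, and the 95% interval as a fold was 0.783 to 1.42.

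Per length, Slc2a4 made up most of the transporter transcripts in both groups. With CPM divided by the merged exon length, its level was 72.7 ± 20.5 CPM per kb in transgenic libraries and 61.6 ± 6.44 CPM per kb in wild-type libraries (SD, n = 5 each). That was 88.4% of the summed level of the 6 members in transgenic muscle and 89.7% in wild-type muscle. Slc2a3 made up 4.17% in transgenic muscle and 0.733% in wild-type muscle.

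In transgenic muscle the order of the levels below Slc2a4 was Slc2a3 at 3.45 ± 1.11, Slc2a8 at 2.31 ± 0.538, Slc2a12 at 2.14 ± 0.406, Slc2a1 at 1.15 ± 0.268 and Slc2a10 at 0.378 ± 0.0415 CPM per kb (SD, n = 5). In wild-type muscle it was Slc2a12 at 2.66 ± 0.623, Slc2a8 at 1.81 ± 0.126, Slc2a1 at 1.72 ± 0.745, Slc2a3 at 0.499 ± 0.140 and Slc2a10 at 0.359 ± 0.0617 CPM per kb (SD, n = 5). Slc2a3 was thus the second member in transgenic muscle and the fifth in wild-type muscle.

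Neighbours in this order did not always differ beyond their spread. In transgenic muscle the ranges of Slc2a3 and Slc2a8 overlapped although Slc2a3 was higher in each of the 5 libraries, and Slc2a8 and Slc2a12 exchanged places between libraries. In wild-type muscle Slc2a12 and Slc2a8, Slc2a8 and Slc2a1, and Slc2a3 and Slc2a10 overlapped. Within a library the ratio of Slc2a3 to Slc2a1 per kb was 1.96 to 4.42 in transgenic muscle and 0.194 to 0.477 in wild-type muscle, so the order of this pair was opposite in the groups. The ratio of Slc2a4 to Slc2a3 was 18.1 to 27.1 in transgenic muscle and 94.3 to 235 in wild-type muscle.

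**Figure D5:**
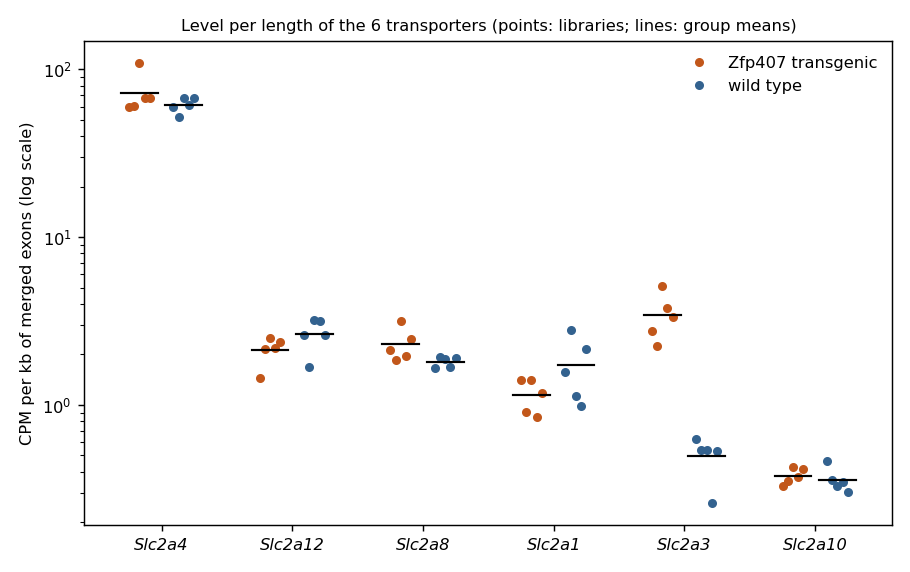
CPM per kb of merged exons on a log axis for each member, with transgenic libraries (orange) left of wild-type libraries (blue) and the group means as lines. Slc2a4 lies far above the rest in both groups, and Slc2a3 has a mean of 3.45 in transgenic and 0.499 in wild-type muscle.

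Of the 3 other family genes tested, Slc2a2 and Slc2a9 rose, both at low levels, and the median log2 fold change of the 3 was 1.28. Slc2a2 encodes GLUT2, the transporter of hepatocytes, and had 1.06, 1.91, 0.886, 4.49 and 15.9 CPM in transgenic libraries 1 to 5, and 0.158, 0.339, 0.222, 0.455 and 1.08 CPM in wild-type libraries 1 to 5. The summed hepatocyte markers, a list that includes Slc2a2, were at 502, 764, 415, 1097 and 4417 CPM in transgenic libraries 1 to 5, and 349, 259.5, 164, 202 and 214 CPM in wild-type libraries 1 to 5. The order of Slc2a2 was that of the sum among transgenic libraries but not among wild-type libraries, where library 1 had the lowest Slc2a2 and the highest sum. The largest part of the wild-type sum was Cyp2e1 at 109 ± 65.6 CPM, above Alb at 66.9 ± 30.8 CPM (SD, n = 5). Hp stood at 29.6 ± 28.1 CPM in wild-type muscle (SD, n = 5), and neither Cyp2e1 nor Hp passed the test between the groups. The part of hepatocyte RNA in the level of Slc2a2 was not tested. Its log2 fold change was 3.40 ± 0.85 (SE) with an edgeR adjusted p of 0.0340. Without transgenic library 5 it was 2.22 ± 0.57 (SE), with an edgeR adjusted p of 0.0416. Leaving out transgenic libraries 4 and 5 gave 1.52 ± 0.50 (SE) with an edgeR adjusted p of 0.155. Leaving out transgenic library 4 alone, or 1 of wild-type libraries 1 to 4, also ended the call, at edgeR adjusted p-values of 0.0589 to 0.0942.

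Slc2a9, a urate transporter, stood at 1.84 ± 0.695 CPM in transgenic muscle and 0.761 ± 0.338 CPM in wild-type muscle (SD, n = 5 each), on 7 to 45 counts per library. At 1.28 ± 0.33 (SE) its log2 fold change had an edgeR adjusted p of 0.0376. The call ended when any of wild-type libraries 1, 3, 4 and 5 or any of transgenic libraries 2, 4 and 5 was left out, at edgeR adjusted p-values of 0.0636 to 0.105. Slc2a13, a transporter of myo-inositol, did not pass, with a log2 fold change of -0.27 ± 0.30 (SE). Slc2a6 was left out by the filter, with 6 to 18 counts per transgenic library and 3 to 11 counts per wild-type library.

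Genes that act with the transporters were counted beside the 5.33% of all genes tested that were called. In hexokinases and the first steps of glucose use none of 8 genes tested passed, and Hk2, the main hexokinase of muscle, stood at 134 ± 24.4 CPM in transgenic muscle and 125 ± 26.7 CPM in wild-type muscle (SD, n = 5 each). The smallest p-value of this list was that of Hk1, another hexokinase, with a log2 fold change of 0.24 ± 0.15 (SE). Of 27 genes of GLUT4 vesicle cargo and traffic 1 rose and 1 fell, the GTPase-activating proteins Tbc1d1 and Tbc1d4. Tbc1d1 stood at 138 ± 54.3 CPM in transgenic muscle and 57.1 ± 15.6 CPM in wild-type muscle, and Tbc1d4 at 34.7 ± 4.42 CPM in transgenic muscle and 46.6 ± 1.65 CPM in wild-type muscle (SD, n = 5 each). The median log2 fold change was 0.16 for the first list and -0.08 for the second.

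No gene passed among the regulators tied to Slc2a4 or in a list around Txnip, where 5.33% of all genes tested were called. Of 21 transcription factors and cofactors tied to Slc2a4, none was called, with a median log2 fold change of -0.09. The nuclear receptor Nr1h2 and the MEF2 factor Mef2d had the smallest p-values, with log2 fold changes of 0.40 and -0.35 (edgeR adjusted p = 0.198 and 0.306). Txnip, an arrestin-like protein that restrains glucose uptake, stood at 588 ± 88.4 CPM in transgenic muscle and 717 ± 93.9 CPM in wild-type muscle (SD, n = 5 each; edgeR adjusted p = 0.297), and none of the 5 genes of its list passed. Second in that list by p-value was Mlx, the dimer partner of the Mondo factors, with a log2 fold change of 0.22.

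Slc2a1 and Slc2a3 are known targets of hypoxia-inducible factors. Of 14 other such targets tested none passed, where 5.33% of all genes tested were called. The median log2 fold change of the 14 was -0.01. The prolyl hydroxylase gene Egln3 had the smallest p-value, at 33.5 ± 10.7 CPM in transgenic muscle and 13.8 ± 9.60 CPM in wild-type muscle (SD, n = 5 each; edgeR adjusted p = 0.0967), followed by the carbonic anhydrase gene Car9 with a log2 fold change of -0.57. The part of hypoxia-inducible factors in the rise of Slc2a3 was not tested. The 7 sodium-coupled glucose transporter genes of the remaining list were not analysed here.

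The genes of most like pattern were ranked by the root mean square difference of log2 CPM, centred on each gene's own mean over the 10 libraries, among genes with a mean of at least 5 CPM. Values of the same libraries enter both genes, and the ranking describes these libraries only. The difference between the groups is part of the pattern, so a like gene shares a member's change by the way it was chosen. For Slc2a3 they were Ankrd13b, Kctd17 and the orphan receptor Gpr27, at differences of 0.39, 0.52 and 0.56, where the Slc2a3 values themselves spread by 1.44 around their mean. By that choice all 3 rose, with log2 fold changes of 2.36, 2.01 and 3.82, which is no separate result.

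For Slc2a4 the most like genes were the Hsp70 co-chaperone Hspbp1, the choline transporter-like gene Slc44a2 and the immunophilin Fkbp8, at differences of 0.07, 0.07 and 0.08 against a spread of 0.27. None of the 3 passed. For Slc2a1 they were the translation repressor Eif4ebp1, Klhl38 and Lrrc30, at 0.11, 0.16 and 0.22 against a spread of 0.51, each with a log2 fold change between -0.63 and -0.54 that did not pass. For Slc2a8 they were Znfx1, Med24 and Bckdha, for Slc2a10 Fitm2, Tmed9 and Ankrd27, and for Slc2a12 Mrpl19, Mamstr and the muscle chloride channel Clcn1, with differences from 0.08 to 0.15 and no call among the 9.

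Markers of the remaining cell types, apart from hepatocytes, gave no call, where 5.33% of all genes tested were called. None of 12 fast fibre, 10 slow fibre, 12 endothelial, 9 pericyte and smooth muscle, 10 fibroblast, 9 adipocyte, 3 platelet and neutrophil and 6 erythroid markers tested passed. Endothelial markers summed to 497 to 832 CPM in transgenic libraries and 531 to 945 CPM in wild-type libraries. Much of this sum was Fabp4, which is also on the adipocyte list, at 108 to 460 CPM in transgenic libraries and 144 to 540 CPM in wild-type libraries. Adipocytes also carry Slc2a4, and their markers without Car3 summed to 278 to 2117 CPM in transgenic libraries and 334 to 2352 CPM in wild-type libraries. With Car3 the sum was 2016 to 4155 CPM in transgenic libraries and 1994 to 4411 CPM in wild-type libraries. Erythroid markers summed to 61.4 to 234 CPM in transgenic libraries and 47.9 to 119 CPM in wild-type libraries, fibroblast markers to 2519 to 4906 CPM in transgenic libraries and 2676 to 4865 CPM in wild-type libraries, and slow fibre markers to 271 to 923 CPM in transgenic libraries and 162 to 1660 CPM in wild-type libraries. Of 14 hepatocyte markers tested 11 rose, where 4.28% of all genes tested were called higher. Among the 11 was Alb, at 924 ± 1199 CPM in transgenic muscle and 66.9 ± 30.8 CPM in wild-type muscle (SD, n = 5 each).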

How the data were processed

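The authors deposited whole-number counts of reads for each gene and library, which were used as they stand. The submitters' processing notes name, for GRCm38.p4, the aligner TopHat2 (2.1) with Bowtie2 (2.2.6), then SAMtools (1.2), the counter HTSeq (0.6.1) and DESeq2 (1.10). Counting options and strand are not stated. The deposited table also holds the authors' mean signal, log2 fold change, Wald score and p-values from DESeq2. Columns name a group and not a mouse, so mouse and batch could not be modelled. Every pair of libraries within a group differed by more than sampling noise.

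After filterByExpr and TMM, edgeR 4.0.16 in R 4.3.3 (glmQLFit and glmQLFTest) tested transgenic against wild type, with Benjamini-Hochberg adjustment over 13338 genes. Each standard error was computed from a gene's log2 change and its F value. The script was tested on simulated data. Coordinates and lengths come from GENCODE M21 (GRCm38). Alternatives were other normalizations and filters, DESeq2 1.42.0, the authors' values, libraries left out and other gene lengths. Members and lists were chosen with earlier results of these data known. Named genes are the members, Zfp407, other SLC2A genes, 3 like genes per member, and per pathway list the called genes or the 2 with the smallest p. Neighbouring genes, Hk2, Tbpl1 and single genes of the marker lists were added after their values were seen, as were the marker sums without Des and without Car3. A gene that the rule names is not reported here.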

Additional observations from a re-analysis of the deposited data

Results flagged for a closer look

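In 4 of 20 groups of 5 libraries, for the 10 SLC2A genes of the table, 1 library lay far from the others of its group by Dixon's test, which chance gives in about 1 group in 20. Slc2a4 had 378 CPM in transgenic library 3, where the next transgenic library had 236 CPM. Slc2a3 had 1.89 CPM in wild-type library 4, where the next wild-type library had 3.83 CPM, and its log2 fold change was 2.60 ± 0.24 (SE) without that library. Slc2a2 had 15.9 CPM in transgenic library 5, where the next transgenic library had 4.49 CPM. Slc2a9 had 1.36 CPM in wild-type library 2, where the next wild-type library had 0.666 CPM.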

How the results depend on the processing

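Across 19 alternatives each of the 6 members kept its direction and its side of the threshold. The log2 fold change of Slc2a3 ran from 2.60 to 3.03, and its adjusted p reached at most 0.000542. That of Slc2a4 ran from 0.05 to 0.39, of Slc2a1 from -0.75 to -0.37, of Slc2a8 from 0.20 to 0.47, of Slc2a12 from -0.48 to -0.19 and of Slc2a10 from 0.01 to 0.16. The count of genes past the threshold was 711 with edgeR, 1230 with DESeq2 and 1158 in the authors' deposited table. With 1 library left out it ran from 450 without wild-type library 3 to 1116 without transgenic library 3. Per kb of coding sequence in place of merged exons, the share of Slc2a3 among the members was 8.55% in transgenic and 1.56% in wild-type libraries and that of Slc2a4 was 84.4% in transgenic libraries, and Slc2a1 stood above Slc2a8 in wild-type muscle. The low counts of Slc2a10, Slc2a9 and Slc2a6 limit what could be detected for them. No paired analysis was possible because the columns carry no number that ties libraries of the groups to each other.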
